A study of Homo sapiens with 18 samples.

Results

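The genes described here are 37 members of the transcriptional programme driven by activating transcription factor 4 (ATF4) when amino acids run short, out of 61806 genes in the table. They were taken by symbol and sorted by known role into 9 transcription factors, 4 stress regulators, 8 amino acid transporters, 8 enzymes, 6 secreted factors or receptors, and 2 others. The cells were LoVo and DLD-1, both established human colorectal adenocarcinoma lines, grown in DMEM with serum. In each line there were 3 libraries from cells with an empty vector (EV), 3 from cells that overexpressed the RNA-binding protein LIN28B, and 3 from LIN28B cells given 5 µM alpelisib, which inhibits the alpha isoform of phosphatidylinositol 3-kinase (PI3K). Alpelisib was given to LIN28B cells and to no EV cells, so its effect without LIN28B was not measured. The sources used here do not say whether the lines were clones or pools, what vehicle untreated cells had or how long treatment lasted.

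ATF4 is the main effector of the integrated stress response. Kinases that sense uncharged tRNA, unfolded proteins, viral RNA or haem shortage phosphorylate the initiation factor eIF2, which slows general translation and raises translation of the ATF4 mRNA through its upstream reading frames. ATF4 protein then pairs with C/EBP family proteins on DNA and switches on genes for amino acid uptake, amino acid synthesis and tRNA handling. Growth factor signalling through PI3K and mTORC1 is also known to raise ATF4 output. Since much of this control acts on translation, the ATF4 mRNA level need not follow ATF4 protein, which was not measured.

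The overexpressed gene was read first. LIN28B averaged 1.76 TPM (a share of each library's transcripts, scaled by gene length) in DLD-1 EV, 462 in DLD-1 LIN28B and 143 with alpelisib. Under the LoVo label the means were 4.15, 687 and 154 TPM. The overexpressed transcript itself was thus lower in the alpelisib libraries under both labels, and its part in the alpelisib results was not tested. The libraries labelled LoVo LIN28B, untreated and with alpelisib, were closer to DLD-1 than to LoVo EV. Pearson's r, taken across genes that are no independent replicates, was 0.8904 to 0.9176 for the untreated ones with LoVo EV libraries and 0.9636 to 0.9680 with DLD-1 LIN28B libraries. For those with alpelisib it was 0.8989 to 0.9139 with LoVo EV and 0.9534 to 0.9631 with DLD-1 LIN28B given alpelisib. They are called LoVo-labelled here, and any direction set against LoVo EV depends on line labels that could not be checked. All 8 colon epithelial markers were expressed in each group. The 8 markers of blood, connective tissue and vessel cells summed to 2.15 to 16.25 TPM per library. Of their collagen genes, COL1A2 was at 0 throughout, but COL1A1 measured 11.9, 14.3 and 9.19 TPM in LoVo EV. COL1A1 measured 3.46 to 7.31 TPM in the other LoVo-labelled libraries and 0.542 to 3.65 TPM in DLD-1 libraries. Transcripts of the mitochondrial genome took 14.52% to 24.02% of TPM in LoVo EV, 7.24% to 12.2% in the other LoVo-labelled libraries, 9.23% to 11.75% in untreated DLD-1 libraries and 10.63% to 15.84% in DLD-1 with alpelisib. Nothing in the labels says that libraries of a group came from separate cultures, and the p-values then reflect spread between libraries only, possibly technical. In bulk RNA, fewer cells of a kind and less RNA per cell cannot be told apart.

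ATF4 and its partners bind composite elements that join an ATF half-site to a C/EBP half-site, with the core TGATGNAA. This core was searched on both strands of the 300-base windows that RefSeq promoters of GRCh38.p14 give for 31 of the 37 genes. Only 1 window per gene was read, which for ATF3 lay at the gene's outermost start site, and other start sites were not searched. It was found in 6 of them (19.4%): the transcription factor ATF3, the transporters SLC3A2, SLC7A1 and SLC38A1, and the enzymes CHAC1 and ASNS. By class that was 1 of 8 transcription factors, 3 of 8 transporters, 2 of 6 enzymes and none of the 3 stress regulators, 4 secreted factors or receptors and 2 others. It was held by 1003 (3.67%) of all 27305 promoters, read as 1 window per gene, and by 203 (1.73%) of the 11757 promoters of genes tested here. A match describes the letters of this window only. The bases upstream of the start site are printed for ATF3, CHAC1 and ASNS, the members whose core lay wholly upstream of it. The core is in capitals, and its first base lies at -191, -209 and -68 from the start site in the same order, and in CHAC1 it lies on the opposite strand. All are written 5′ to 3′ along the gene's strand.

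ATF3 (GRCh38.p14, chr1:212565157-212565406, plus strand): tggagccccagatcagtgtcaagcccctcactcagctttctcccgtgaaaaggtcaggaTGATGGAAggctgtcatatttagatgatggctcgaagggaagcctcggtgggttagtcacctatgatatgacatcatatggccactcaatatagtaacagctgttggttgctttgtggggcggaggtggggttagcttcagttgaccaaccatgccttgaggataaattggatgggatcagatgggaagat
CHAC1 (GRCh38.p14, chr15:40953221-40953470, plus strand): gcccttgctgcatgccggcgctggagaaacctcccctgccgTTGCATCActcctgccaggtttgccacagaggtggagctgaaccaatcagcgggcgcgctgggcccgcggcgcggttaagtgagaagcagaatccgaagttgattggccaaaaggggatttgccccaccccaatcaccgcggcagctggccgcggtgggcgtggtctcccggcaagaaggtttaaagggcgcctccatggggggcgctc
ASNS (GRCh38.p14, chr7:97872409-97872658, minus strand): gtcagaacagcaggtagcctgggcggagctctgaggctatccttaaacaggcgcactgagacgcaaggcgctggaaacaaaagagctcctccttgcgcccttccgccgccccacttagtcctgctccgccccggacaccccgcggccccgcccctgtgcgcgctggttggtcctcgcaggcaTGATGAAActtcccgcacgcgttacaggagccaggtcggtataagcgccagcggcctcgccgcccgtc

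Levels differed widely among the members. On the TPM scale, which divides by gene length, ATF4 itself and GDF15, a secreted stress cytokine, were the most abundant, with group means of 352 to 619 TPM and 341 to 1158 TPM. The median of the members' means was 21.4 TPM in DLD-1 EV, 28.8 in DLD-1 LIN28B and 13.4 with alpelisib, and 13.5, 39.9 and 18.9 TPM in the same order under the LoVo label. Transporters had medians of 42.8, 64.5 and 35.8 TPM in DLD-1 and enzymes 25.1, 40.2 and 16.4 TPM. Transcription factors had 18.7, 27.8 and 13.4 TPM. Under the LoVo label, in the same order of groups, transporters had 49.7, 54.1 and 40.7 TPM and enzymes 14.3, 48.4 and 23.3 TPM. Transcription factors there had 12.2, 34.4 and 18.9 TPM. Secreted factors and receptors had a median under 1 TPM in each DLD-1 group. CBS, an enzyme of transsulfuration with a near-identical copy on this build, and INHBE, a secreted activin subunit, did not pass the filter of 1 TPM in 3 libraries and were not tested. CBS did not exceed 0.927 TPM and INHBE did not exceed 0.61 TPM in any library.

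**Figure D1:**
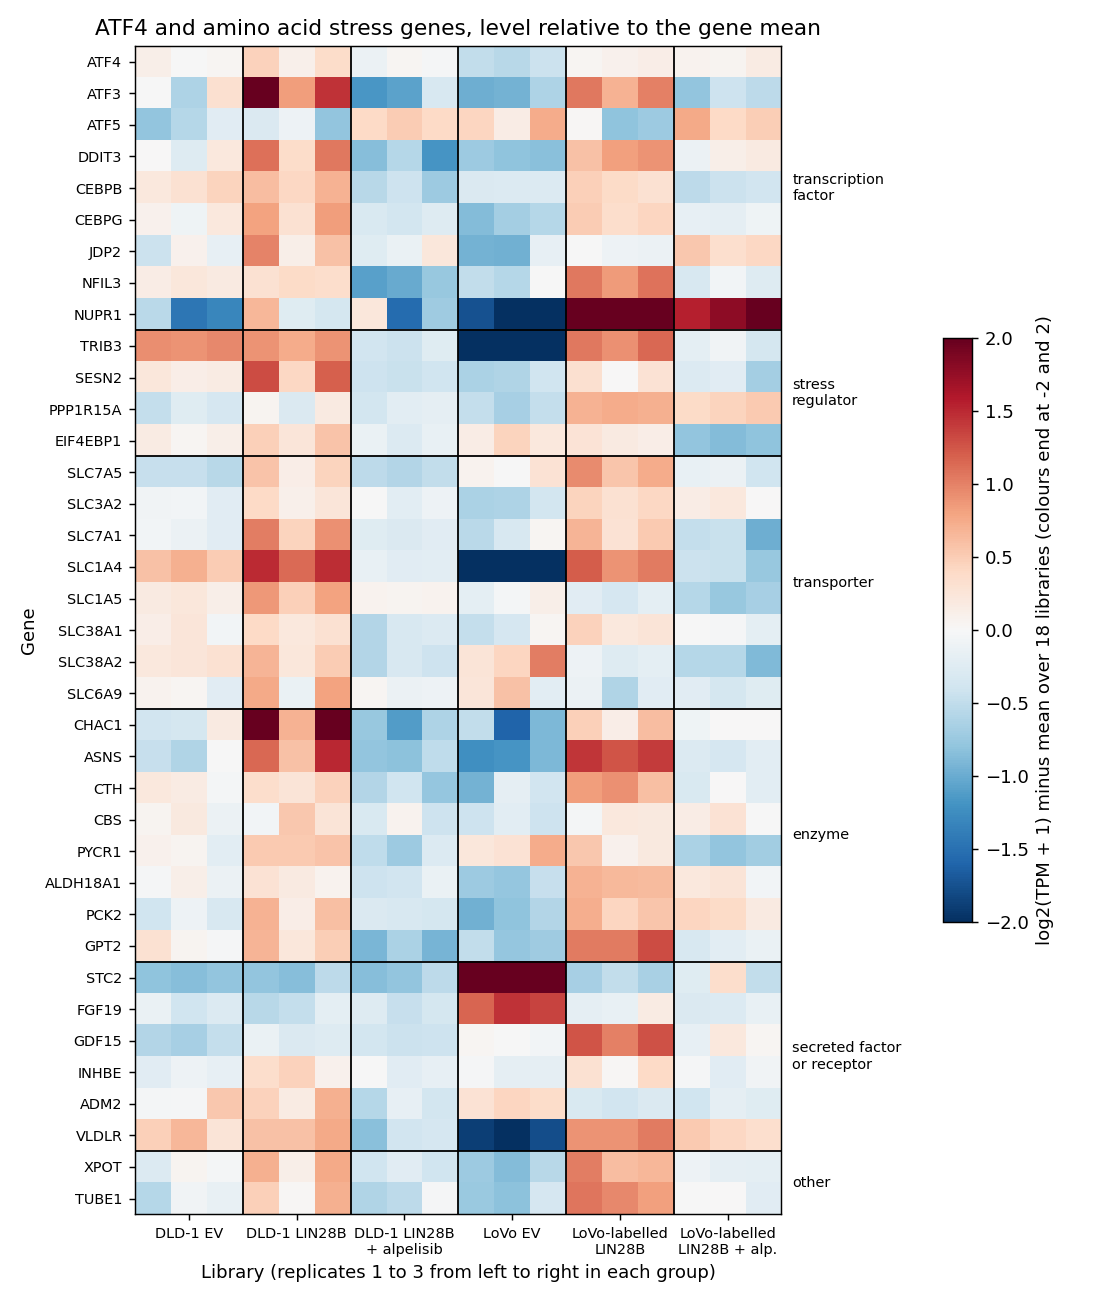
Each row is 1 of the 37 genes, grouped by role, and each column 1 of the 18 libraries, with replicates 1 to 3 from left to right in each group. Colour gives log2(TPM + 1) minus the gene's mean over all libraries, with colours ending at -2 and 2. The untreated LIN28B columns are mostly red and the LoVo EV and alpelisib columns mostly blue, and replicate 2 of DLD-1 LIN28B is paler than replicates 1 and 3.

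In DLD-1 with raised LIN28B, members from 5 of the 6 roles rose, among them ASNS, CHAC1, ATF3 and SLC7A5. Of the 35 members tested, 13 rose and 0 fell by limma on log2(TPM + 1), where 1.21% of all genes tested were called higher and 1.32% lower, both at a Benjamini-Hochberg adjusted p under 0.05. At an unadjusted p under 0.05 the counts were 24 higher and 0 lower. Here and below, all genes were not counted at that unadjusted threshold, and the percentages belong to adjusted calls only. The count of 13 was 1, SLC7A5, when EV and LIN28B were fitted without the other groups, a fit in which the count over all genes went from 225 to 71 higher, and the cause of this shift was not tested. It was 4 without DLD-1 LIN28B replicate 1, 5 without replicate 3 and 17 without replicate 2, and 7 without either DLD-1 EV replicate 1 or replicate 2. SLC7A5, SLC1A4, ASNS and CHAC1 were called in each of the 6 fits without 1 DLD-1 EV or LIN28B library. Of 8 colon epithelial markers, 1 was higher and 3 were lower in this comparison. The median log2 change of the members was 0.37, against 0.02 over all genes tested, and 33 of 35 values were above 0. Log2 changes are on the log2(TPM + 1) scale, which understates the change of low genes.

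Among transcription factors, 3 of 9 rose. ATF3, a stress-induced partner of other ATF proteins, measured 8.88, 5.47 and 11.3 TPM in EV and 40.6, 16.8 and 26 TPM in LIN28B. The groups did not overlap, and the mean was 3.25-fold higher (log2 1.55 ± 0.29 SE, limma, adjusted p = 0.00999). DDIT3, also called CHOP and known for its role in stress-induced cell death, went from 27.7, 23.1 and 32.2 to 60.8, 35.8 and 58.6 TPM. CEBPG, a C/EBP protein that pairs with ATF4, went from 18.9, 16.5 and 20.7 to 31.8, 22.1 and 32.5 TPM. In both genes the lowest LIN28B library was replicate 2, just above the highest EV library. ATF4 measured 538, 493 and 509 TPM in EV and 682, 535 and 641 TPM in LIN28B. Its groups overlapped, and its log2 change of 0.26 ± 0.08 did not pass the test (limma, adjusted p = 0.103). The log2 changes of the others, ATF5, CEBPB, JDP2, NFIL3 and NUPR1, lay between 0.13 and 1.12, and none passed.

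Of the 8 transporters, 5 rose. SLC7A5, which imports large neutral amino acids such as leucine, measured 43.5, 43.5 and 40.9 TPM in EV and 90.8, 66.4 and 82.4 TPM in LIN28B, a log2 change of 0.88. Its pseudogene copy SLC7A5P2 had a highest value of 15.8 TPM over all libraries, so the split of reads between them is uncertain. SLC3A2, the heavy chain that SLC7A5 needs at the membrane, had a smaller log2 change of 0.37. SLC7A1, the importer of arginine and lysine, went from 9.6, 9.13 and 8.35 to 21.3, 13.9 and 19.6 TPM. SLC1A4 went from 15.9, 17.4 and 15 to 30.5, 23.6 and 30.2 TPM and SLC1A5 from 79, 81.9 and 76.2 to 128, 97.2 and 122 TPM. Both are exchangers of small neutral amino acids, and SLC1A5 is a main route for glutamine. In none of these 5 genes did a LIN28B library fall below an EV library. SLC38A1 and SLC38A2, sodium-coupled carriers of glutamine and alanine, and SLC6A9, a glycine carrier, had log2 changes of 0.19, 0.22 and 0.52, and none passed the test.

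Of the 7 enzymes tested, 3 rose. CHAC1, which cleaves glutathione, had the largest change of all members, from 6.16, 6.33 and 9.59 TPM to 42.2, 14.1 and 36 TPM. Its mean was 4.18-fold higher without overlap (log2 1.81 ± 0.33 SE, limma, adjusted p = 0.00835). ASNS, which makes asparagine from aspartate and glutamine, rose 2.82-fold, from 26.3, 23.6 and 36.3 TPM to 82.5, 55.5 and 105 TPM (log2 1.44 ± 0.19 SE, limma, adjusted p = 0.000862). PCK2, the mitochondrial enzyme that makes phosphoenolpyruvate, went from 26.4, 32.5 and 27.7 to 57, 38.3 and 53.6 TPM. PYCR1, which completes proline synthesis, had a log2 change of 0.56 that just missed the threshold (limma, adjusted p = 0.0512). ALDH18A1, the first enzyme of that pathway, had 0.19, CTH, which releases cysteine, 0.24, and GPT2, the mitochondrial alanine transaminase, 0.35.

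Of the 4 stress regulators 1 rose: SESN2, a leucine sensor that restrains mTORC1, from 6.4, 6 and 6.13 to 14.7, 7.48 and 13.6 TPM. TRIB3, a pseudokinase that binds ATF4 and AKT, measured 169, 166 and 172 TPM in EV and 167, 149 and 166 TPM in LIN28B, with overlapping groups and a log2 change of -0.08. Of the 5 secreted factors or receptors 0 rose by limma, and 1, GDF15, had an unadjusted p under 0.05. XPOT, which exports tRNA from the nucleus, rose by a log2 value of 0.61, and TUBE1, a tubulin of the centriole, had 0.67 and did not pass.

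Within DLD-1 LIN28B most members were lowest in the same library. Replicate 2 was the lowest of the 3 libraries for 30 of the 37 members, and replicate 1 the highest for 19 and replicate 3 for 14. The order over all genes was not counted. Other groups had uneven orders too: replicate 2 of LoVo-labelled LIN28B was lowest for 24 of 37, and replicate 3 of LoVo EV highest for 22. Relative to the EV mean, the median log2 value of the 35 tested members was 0.55 in replicate 1, 0.22 in replicate 2 and 0.54 in replicate 3, where all genes had medians of 0.05, 0.00 and -0.01. The median SD between the 3 libraries was 0.228 log2 for the members and 0.14 for all genes tested. In the 5 other groups the members' median SD was 0.116 to 0.177 and below that of all genes. LIN28B itself measured 493, 483 and 408 TPM in replicates 1, 2 and 3. The mitochondrial share was 10.28%, 10.42% and 11.06% in the same order. The part of either in the members' spread was not tested.

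**Figure D2:**
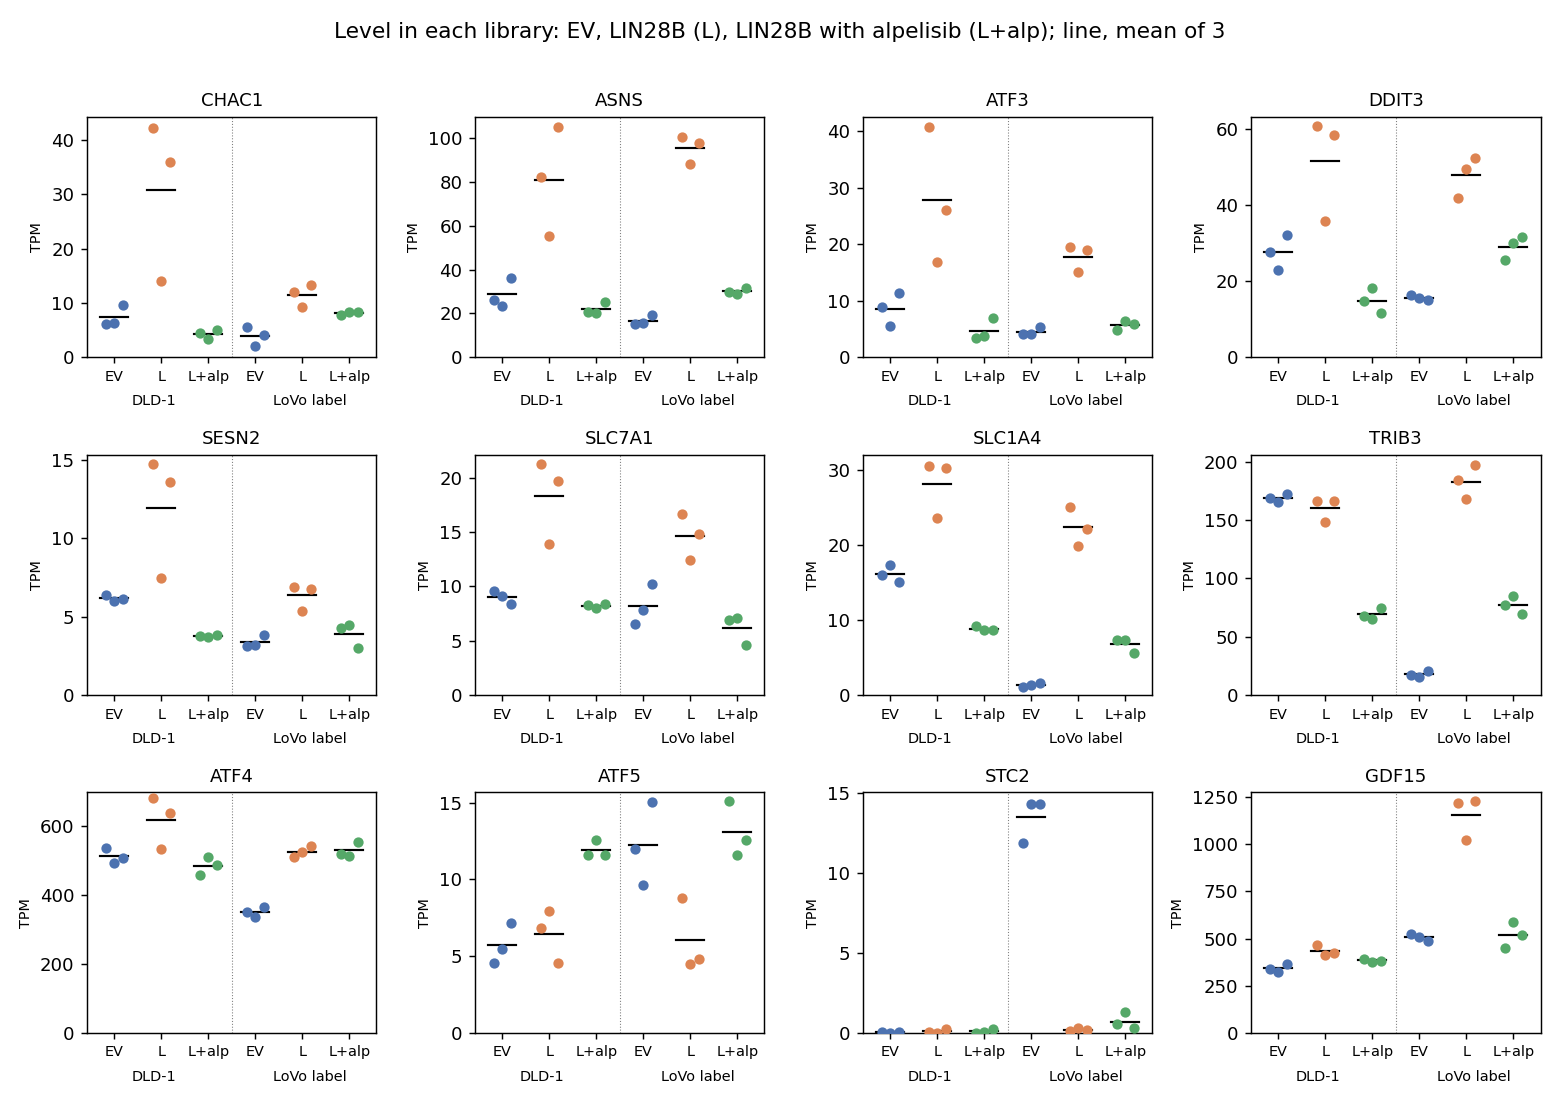
TPM in each library for 12 genes, with EV, LIN28B (L) and LIN28B with alpelisib (L+alp) in DLD-1 on the left of the dotted line and under the LoVo label on the right. Points are libraries and bars are means of 3, and each axis starts at 0. CHAC1, ASNS, ATF3 and SESN2 peak in LIN28B and fall with alpelisib in DLD-1, while ATF5 goes the other way with alpelisib and STC2 is high in LoVo EV alone.

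Alpelisib versus untreated LIN28B cells in DLD-1 asked how the response behaved when PI3K was inhibited. Members of every class were lower: 28 of 35 members fell and 1 rose by limma, where 21.9% of all genes tested were called lower and 9.05% higher. The members' median log2 change was -0.87, against -0.09 over all genes. Scaling by the median of ratios in place of TPM moved the split over all genes from 1677 higher and 4067 lower to 2686 and 2819, and 25 members were then called lower. Without mitochondrial transcripts, whose share was higher in 2 of the 3 alpelisib libraries, 28 members were called lower.

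Of the 9 transcription factors 7 fell and 1 rose. ATF3 dropped to 3.42, 3.71 and 6.95 TPM with alpelisib, 5.92-fold below untreated LIN28B cells and with no overlap (log2 -2.30 ± 0.29 SE, limma, adjusted p = 4.62e-05). DDIT3 dropped to 14.8, 18.3 and 11.7 TPM, a log2 change of -1.71, and NFIL3, a repressor of the same protein class, to 8.61, 9.22 and 11.1 TPM from 24.3, 25.6 and 25.1. CEBPB, a C/EBP protein of inflammatory and stress responses, went from 71.9, 62.1 and 75.7 to 31.4, 34.4 and 27.6 TPM. ATF4 mRNA changed less, to 460, 510 and 489 TPM (log2 -0.34 ± 0.08 SE, limma, adjusted p = 0.00463), a call that ended under median-of-ratios scaling (limma, adjusted p = 0.109). ATF5, a relative of ATF4 that is also under translational control, was the exception, at 6.81, 7.94 and 4.56 TPM untreated and 11.6, 12.6 and 11.6 TPM with alpelisib. JDP2, a repressor that pairs with JUN, fell with overlapping groups at log2 -0.62, and NUPR1 did not pass at -0.70. For ATF5 the log2 change was 0.82 ± 0.23 (limma, adjusted p = 0.0122), and the call ended without DLD-1 LIN28B replicate 3 (limma, adjusted p = 0.0644).

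All 7 enzymes tested and 7 of 8 transporters fell. CHAC1 dropped to 4.49, 3.28 and 5.1 TPM, 7.19-fold below untreated LIN28B cells (log2 -2.46 ± 0.33 SE, limma, adjusted p = 8.24e-05). ASNS dropped to 20.8, 20.2 and 25.4 TPM, 3.66-fold lower (log2 -1.79 ± 0.19 SE, limma, adjusted p = 9.09e-06). Neither gene's alpelisib libraries overlapped the untreated ones. GPT2 had a log2 change of -1.29, PYCR1 one of -1.04 and CTH one of -0.95. Among transporters the log2 changes ran from -1.55 for SLC1A4, which measured 9.2, 8.63 and 8.72 TPM with alpelisib, to -0.35 for SLC3A2. SLC7A1 dropped to 8.32, 7.97 and 8.41 TPM and SLC7A5 to 41.9, 39.9 and 42.6 TPM. SLC6A9 had a log2 change of -0.54 and did not pass.

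The stress regulators TRIB3, SESN2 and EIF4EBP1, an inhibitor of cap-dependent translation, fell. TRIB3, not called for LIN28B versus EV, measured 67.9, 65.2 and 74.5 TPM with alpelisib, a log2 change of -1.20. SESN2 measured 3.77, 3.68 and 3.83 TPM, below every EV and every untreated LIN28B library. PPP1R15A, the phosphatase subunit that reverses eIF2 phosphorylation, did not pass, at log2 -0.23. The secreted peptide ADM2 and VLDLR, a lipoprotein receptor, fell by log2 values of 0.81 and 1.16, while GDF15, FGF19, an enterohepatic hormone, and STC2, a secreted glycoprotein, did not pass. XPOT and TUBE1 both fell.

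**Figure D3:**
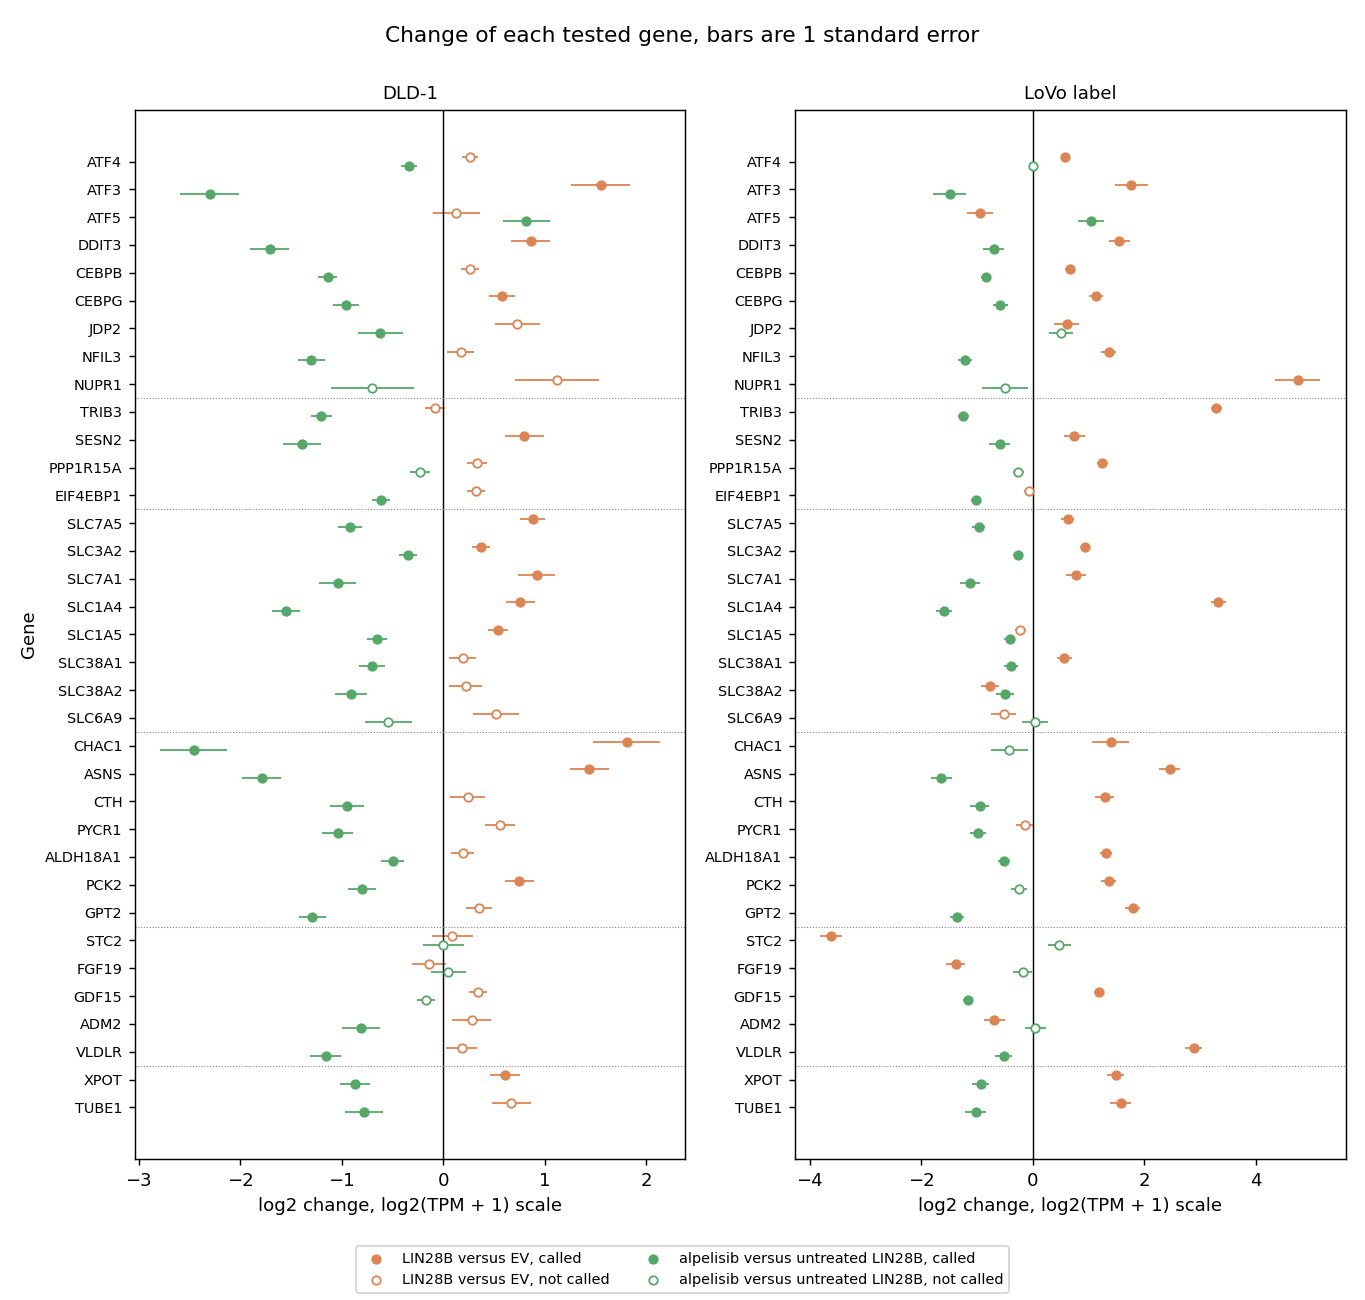
Log2 change of each of the 35 tested genes on the log2(TPM + 1) scale, ordered by class, for LIN28B versus EV (orange) and for alpelisib versus untreated LIN28B cells (green), in DLD-1 on the left and under the LoVo label on the right. Bars are 1 standard error, and filled points passed an adjusted p under 0.05. Most green points lie below 0 in both panels, and ATF5 lies above 0 in both.

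Alpelisib-treated LIN28B cells were also set against EV in DLD-1. This comparison shares the EV libraries with the first and the alpelisib libraries with the second, so the values are given side by side and no overlap of calls is read. Of 35 members 16 were lower than EV and 1, ATF5, was higher, where 20.2% and 9.71% of all genes tested were called lower and higher. TRIB3 was lowest relative to EV, 2.44-fold below it (log2 -1.28 ± 0.10 SE, limma, adjusted p = 4.21e-07). NFIL3 followed, at 21.6, 22.9 and 22.1 TPM in EV and a log2 difference of -1.13 ± 0.13 (limma, adjusted p = 2.19e-05), and then VLDLR at -0.98 ± 0.15 (limma, adjusted p = 0.000185). For these genes no alpelisib library reached an EV library. SLC1A4, DDIT3, CEBPG and SESN2 were lower as well, with log2 differences from EV of -0.79, -0.85, -0.38 and -0.59. ATF3 at -0.75, CHAC1 at -0.65, ASNS at -0.35, SLC7A1 at -0.12, SLC7A5 at -0.04 and SLC3A2 at 0.02 were not called. ATF4 mRNA stood at log2 -0.08 from EV (limma, adjusted p = 0.506). The count of 16 was 10 without DLD-1 alpelisib replicate 1 and 11 to 14 without any other single library. Median-of-ratios scaling moved the split over all genes from 1800 higher and 3740 lower to 2657 and 3006, with 12 members lower and 2 higher.

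Under the LoVo label most members also fell with alpelisib. Of 35 members 24 fell and 1 rose by limma, where 24.6% of all genes tested were called lower and 15.1% higher, and the members' median log2 change was -0.58 against -0.06. By class, 5 of 9 transcription factors, 3 of 4 regulators, 7 of 8 transporters and 5 of 7 enzymes fell. ASNS went from 101, 88.4 and 97.9 to 30, 28.8 and 31.4 TPM, 3.18-fold lower (log2 -1.64 ± 0.19 SE, limma, adjusted p = 7.63e-06). SLC1A4 went from 25.1, 19.9 and 22.2 to 7.36, 7.3 and 5.64 TPM, 3.3-fold lower (log2 -1.59 ± 0.14 SE, limma, adjusted p = 4.08e-07). ATF3 went from 19.5, 15 and 18.9 to 4.74, 6.46 and 5.88 TPM (log2 -1.49 ± 0.29 SE, limma, adjusted p = 0.000779). None of these 3 overlapped between groups. ATF5 again was the single member called higher, from 8.78, 4.49 and 4.82 to 15.1, 11.6 and 12.5 TPM (log2 1.05 ± 0.23 SE, limma, adjusted p = 0.00175). At an unadjusted p under 0.05, 3 members were higher and 25 lower. JDP2, called lower in DLD-1, went from 13.7, 12.7 and 12.6 to 20.6, 17.6 and 18.6 TPM here, without overlap, and was not called. ATF4 mRNA measured 512, 526 and 542 TPM untreated and 520, 514 and 556 TPM with alpelisib, with overlap and a log2 change of 0.01 ± 0.08 (limma, adjusted p = 0.948). Under median-of-ratios scaling the split over all genes went from 2807 higher and 4557 lower to 3699 and 3639, and 23 members fell.

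The alpelisib effects of both labels were compared by an interaction term. GDF15 was the single member whose effect differed by limma, with 1 lower and 0 higher under the LoVo label, where 0.21% of all genes tested were called lower and 0.637% higher. It went from 1219, 1024 and 1230 to 452, 586 and 520 TPM under the LoVo label and from 465, 413 and 423 to 393, 377 and 381 TPM in DLD-1 (difference of log2 changes -0.98 ± 0.13, limma, adjusted p = 0.00186). CHAC1 fell by 2.46 log2 in DLD-1 and had a value of -0.42 under the LoVo label, and the difference of 2.04 did not pass (limma, adjusted p = 0.0519). For ATF4 the difference was 0.35 (limma, adjusted p = 0.179). Members whose fall was larger in DLD-1 numbered 0 by the adjusted test and 9 at an unadjusted p under 0.05, where all genes were not counted. Without DLD-1 LIN28B replicate 2, 4 were called, ATF4 among them (limma, adjusted p = 0.0475). Median-of-ratios scaling moved the split over all genes from 118 higher and 39 lower to 169 and 105, with 1 member each way.

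**Figure D4:**
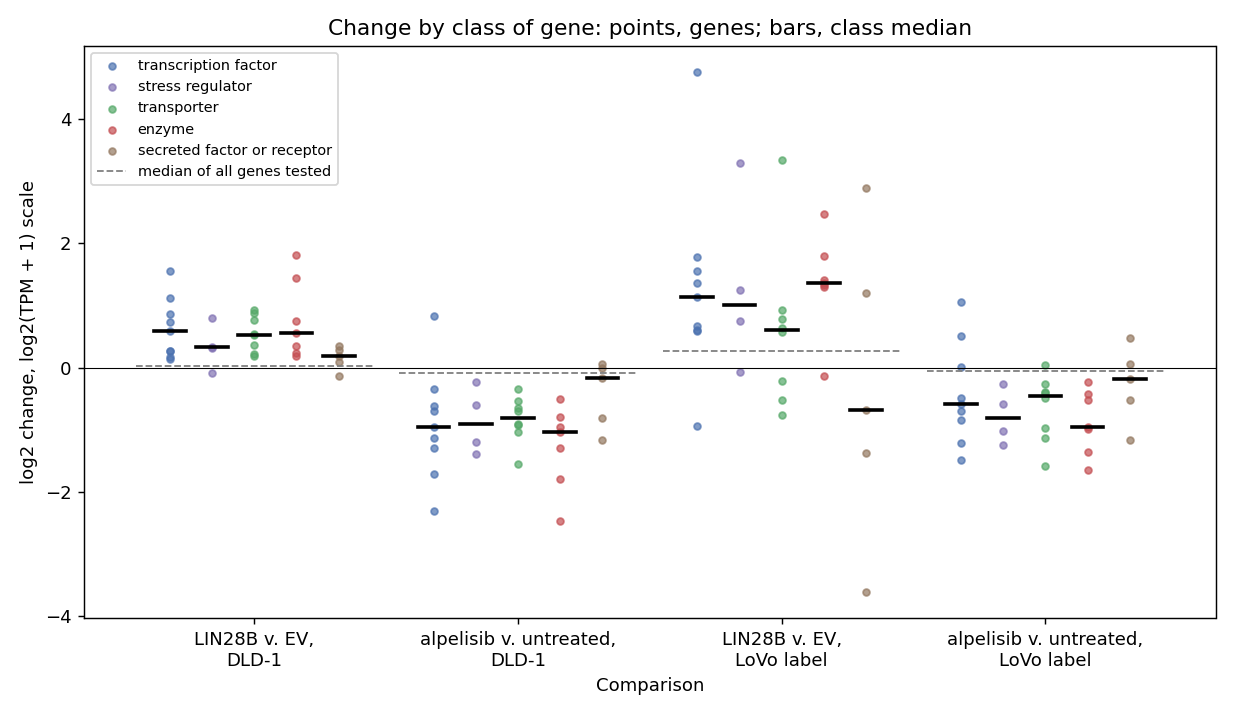
Log2 change of each tested gene (points, log2(TPM + 1) scale) by class for LIN28B versus EV and for alpelisib versus untreated LIN28B cells, in DLD-1 and under the LoVo label. Black bars are class medians and the dashed line is the median of all genes tested. In DLD-1 with alpelisib the medians of transcription factors, regulators, transporters and enzymes lie between -0.80 and -1.04, and that of secreted factors and receptors at -0.17.

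Transporters, enzymes and transcription factors had similar medians in DLD-1. For LIN28B versus EV these were 0.53, 0.56 and 0.58, against 0.18 for secreted factors and receptors, and for alpelisib versus untreated they were -0.80, -1.04 and -0.96 against -0.17. Under the LoVo label the alpelisib medians were -0.45, -0.95 and -0.58, and -0.18 for secreted factors and receptors. For LIN28B versus EV under that label the classes lay further apart, at 0.60, 1.36 and 1.14, and -0.69 for secreted factors and receptors. Transporters spanned the narrowest range of these 3 classes for LIN28B versus EV in DLD-1, 0.19 to 0.92, beside 0.19 to 1.81 for enzymes and 0.13 to 1.55 for transcription factors. Differences between classes were not tested.

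Genes around the module, taken from lists of the same pathway, were read next. Of 23 further ATF4 targets tested (26 listed: serine and one-carbon enzymes, tRNA synthetases and others), 8 rose and 0 fell in DLD-1 LIN28B, beside 1.21% and 1.32% of all genes tested. At an unadjusted p under 0.05, where all genes were not counted, 14 were higher and 0 lower. PSAT1, an enzyme of serine synthesis, measured 59.3, 54.7 and 54.9 TPM in EV and 139, 96.5 and 149 TPM in LIN28B (log2 1.15, limma, adjusted p = 0.00022). YARS1, the tyrosyl-tRNA synthetase, had a log2 change of 0.61 (limma, adjusted p = 0.0144). With alpelisib 19 fell in DLD-1 and 20 under the LoVo label, and none rose. There 21.9% and 24.6% of all genes tested were called lower, and 9.05% and 15.1% higher, in the same order. DDIT4, an inhibitor of mTORC1, had the smallest p in both. It went from 1298, 960 and 1235 to 82, 109 and 97.3 TPM in DLD-1 (log2 -3.58, limma, adjusted p = 3.06e-09) and from 3173, 2882 and 3258 to 403, 553 and 367 TPM under the LoVo label (log2 -2.83, limma, adjusted p = 1.34e-08). SLC7A11, the cystine importer, had a log2 change of -2.38 in DLD-1 (limma, adjusted p = 1.52e-07) and PSAT1 one of -1.63 under the LoVo label (limma, adjusted p = 2.02e-07).

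The upstream machinery and chaperones were read in the same way. Of 17 genes for eIF2 kinases, eIF2 and eIF2B subunits and their regulators, 0 were called by limma for LIN28B versus EV in DLD-1, with 1 higher and 1 lower at an unadjusted p under 0.05. With alpelisib 12 fell under each label. PPP1R15B, a second eIF2 phosphatase subunit, had log2 changes of -0.89 in DLD-1 and -0.94 under the LoVo label. Of 13 chaperones of the endoplasmic reticulum, which mark the unfolded protein branch, 0 were called for LIN28B in DLD-1, with 1 higher and 0 lower at an unadjusted p under 0.05, and with alpelisib 10 and 11 fell. PDIA4 and HSP90B1, which fold secretory proteins, had log2 changes of -0.81 and -0.69 in DLD-1 and -0.97 and -0.87 under the LoVo label. The adjusted counts for LIN28B in DLD-1 stand beside 1.21% of all genes called higher and 1.32% lower. At such shares, 0 called among 17 or 13 genes does not set these lists apart from all genes. The adjusted counts for alpelisib stand beside 21.9% lower in DLD-1 and 24.6% under the LoVo label.

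LoVo-labelled LIN28B against LoVo EV gave the widest differences, but the libraries differed across most of the transcriptome. Of 35 members 26 were higher and 5 lower by limma, where 40.3% and 16.5% of all genes tested were called higher and lower. The count of 5 lower was thus close to the share over all genes. The members' median log2 difference was 1.14, against 0.26 over all genes. The surrounding lists stand beside the same 40.3% and 16.5% of all genes. Called higher were 10 of 17 eIF2 genes, 21 of 23 further ATF4 targets and 11 of 13 chaperones, and called lower 0, 1 and 0. Median-of-ratios scaling moved the median of all genes to -0.04, the split over all genes from 7463 higher and 3067 lower to 4750 and 5211, and the members to 22 higher and 9 lower. Colon epithelial markers moved in the same comparison: 7 of 8 were higher and 0 lower, with a median log2 difference of 1.45, and 5 higher and 2 lower under median-of-ratios scaling. CDH17, an intestinal cadherin, averaged 14 TPM in LoVo EV and 130 in LoVo-labelled LIN28B, and VIL1, a brush border protein, 3.03 and 24.8 TPM. Their part in the members' differences was not tested. NUPR1, a small chromatin protein induced by stress, was listed at 1.07, 0.0385 and 0 TPM in LoVo EV and at 33.3, 27 and 43 TPM in LoVo-labelled LIN28B (log2 4.75 ± 0.41 SE, limma, adjusted p = 6.19e-08). SLC1A4 measured 1.03, 1.32 and 1.65 against 25.1, 19.9 and 22.2 TPM (log2 3.33 ± 0.14 SE, limma, adjusted p = 1.18e-11). TRIB3 measured 17.2, 15.7 and 20.9 against 184, 168 and 197 TPM (log2 3.29 ± 0.10 SE, limma, adjusted p = 7.91e-13).

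For comparison, DLD-1 EV held SLC1A4 at 15 to 17.4 TPM and TRIB3 at 166 to 172 TPM, levels nearer to LoVo-labelled LIN28B than to LoVo EV. The largest falls were STC2, at 11.9, 14.3 and 14.3 TPM in LoVo EV and 0.138, 0.278 and 0.15 TPM in LoVo-labelled LIN28B (log2 -3.61 ± 0.20 SE, limma, adjusted p = 3.83e-10), FGF19 (log2 -1.38 ± 0.17 SE, limma, adjusted p = 2.74e-06) and ATF5 (log2 -0.94 ± 0.23 SE, limma, adjusted p = 0.00198). SLC38A2 and ADM2 also fell. STC2 and FGF19 did not exceed 0.259 and 0.402 TPM in any DLD-1 library. ATF4 mRNA was higher than in LoVo EV, at 512 to 542 against 336 to 367 TPM (log2 0.58 ± 0.08 SE, limma, adjusted p = 1.14e-05), a call that ended under median-of-ratios scaling (limma, adjusted p = 0.0536). By an interaction term the LIN28B effect was higher under the LoVo label than in DLD-1 for 19 members and lower for 9, where 30.4% and 12.4% of all genes tested were called. Median-of-ratios scaling moved that split over all genes from 5627 higher and 2296 lower to 3544 and 3822, and the members to 12 and 10.

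The same members were read between lines. LoVo EV against DLD-1 EV had 6 higher and 20 lower by limma, where 17.3% and 38.2% of all genes tested were called. The count of 6 higher was thus close to the share over all genes. STC2 (log2 3.82 ± 0.20 SE, limma, adjusted p = 1.72e-10), FGF19 (1.59 ± 0.17) and ATF5 (0.97 ± 0.23) were higher in LoVo EV. TRIB3 (-3.18 ± 0.10, limma, adjusted p = 6.09e-13), SLC1A4 (-2.88 ± 0.14) and VLDLR (-2.41 ± 0.15) were lower. Colon epithelial markers were lower for 8 of 8, with a median log2 difference of -1.09 beside -0.52 for the members, and their part in this was not tested. ATF4 mRNA was lower too, at -0.54 ± 0.08 (limma, adjusted p = 2.57e-05). Median-of-ratios scaling moved the median of all genes from -0.20 to 0.05 and the split from 3212 higher and 7082 lower to 5207 and 4688. The lower count was then 10 members, near the share over all genes. It was also 10 without LoVo EV replicates 1 and 2, the libraries richest in mitochondrial transcripts, an alternative chosen after seeing the data.

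LoVo-labelled LIN28B against DLD-1 LIN28B had fewer differences, with 6 members higher and 6 lower by limma, where 7.96% and 6.02% of all genes tested were called. NUPR1 (log2 2.31 ± 0.41 SE, limma, adjusted p = 0.000935), GDF15 (1.41 ± 0.09, limma, adjusted p = 2.28e-08) and PPP1R15A (0.73 ± 0.10, limma, adjusted p = 0.000125) were the largest rises among members higher in LoVo-labelled LIN28B, followed by GPT2, NFIL3 and ALDH18A1. CHAC1 (-1.23 ± 0.33, limma, adjusted p = 0.0192), SLC1A5 (-0.96 ± 0.10, limma, adjusted p = 4.18e-06) and SLC6A9 (-0.80 ± 0.23, limma, adjusted p = 0.0316) were lower, as were SESN2, SLC38A2 and ADM2. For SLC1A5 the values were 59.5, 55.3 and 61 TPM against 128, 97.2 and 122 TPM, without overlap, and for SLC6A9 the groups overlapped. ATF4 mRNA did not pass, at -0.23 ± 0.08 (limma, adjusted p = 0.0752). The lower count was 2 without DLD-1 LIN28B replicate 1 or replicate 3, 10 without replicate 2, and 3 without LoVo-labelled LIN28B replicate 2.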

How the data were processed

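Poly(A) RNA was sequenced in 18 libraries, 6 groups of 3, assigned to groups by their labels. Per the file headers, the values the authors deposited were TPM. The submitters' processing notes list STAR 2.7.10 with HTSeq, DESeq2 and Picard, and hg38, giving no role or order. The annotation release, strand setting and gene lengths are not given in the sources used here. Depth cannot be read from TPM, so it is unknown and no count model was used. Since TPM fixes each total, abundant transcripts that change shift the rest.

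Of 61806 identifiers 61757 matched a symbol. Genes at 1 TPM or more in at least 3 libraries (18537) entered limma 3.58.1 (R 4.3.3) as log2(TPM + 1), in 1 model of 6 groups with a mean-variance trend, 12 residual and 3.98 prior degrees of freedom. P-values were two-sided and Benjamini-Hochberg adjusted over all genes tested, and genes were called under 0.05. The fit was tested on simulated data. The 37 members, their classes and the lists were chosen with earlier results of these data known. All members were named, with full statistics for ATF4 and, per comparison, the 3 largest called changes each way with a mean of 2 TPM or more in a group, and up to 2 genes per list by p. Alternatives were an offset of 0.1, other filters, median-of-ratios scaling, rescaling without mitochondrial transcripts, only the groups compared, a replicate block and leaving out libraries. Promoters came from RefSeq, GRCh38.p14. They were not given for NUPR1, EIF4EBP1, PYCR1, GPT2, FGF19 and INHBE.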

Additional observations from a re-analysis of the deposited data

Results flagged for a closer look

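The effect of LIN28B versus EV differed between the labels for 28 of the 35 members, by the interaction term in limma at an adjusted p under 0.05, where 30.4% of all genes tested were called higher and 12.4% lower. Values are the log2 effect under the LoVo label minus that in DLD-1. Among transcription factors the difference was 3.64 for NUPR1, 1.19 for NFIL3, 0.70 for DDIT3, 0.56 for CEBPG, 0.41 for CEBPB, 0.32 for ATF4 and -1.08 for ATF5. Among stress regulators it was 3.36 for TRIB3, 0.92 for PPP1R15A and -0.38 for EIF4EBP1. Transporters had 2.57 for SLC1A4, 0.56 for SLC3A2, -0.75 for SLC1A5, -0.97 for SLC38A2 and -1.04 for SLC6A9. Enzymes had 1.44 for GPT2, 1.13 for ALDH18A1, 1.04 for CTH, 1.02 for ASNS, 0.61 for PCK2 and -0.71 for PYCR1. Secreted factors and receptors had 2.71 for VLDLR, 0.84 for GDF15, -0.97 for ADM2, -1.24 for FGF19 and -3.70 for STC2. TUBE1 and XPOT had 0.92 and 0.88. All of these use the LoVo label, whose LIN28B libraries resembled DLD-1 more than LoVo EV. The ATF4 difference was no longer called after rescaling without mitochondrial transcripts, at 0.11 (limma, adjusted p = 0.456). The same held with only the groups compared (limma, adjusted p = 0.0573). Leaving out some single libraries also ended the ATF4 call, for example DLD-1 LIN28B replicate 2 (limma, adjusted p = 0.0928).

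The effect of alpelisib on GDF15 also differed by the interaction term, at -0.98 (limma, adjusted p = 0.00186), and it was called in every alternative run.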

How the results depend on the processing

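Counts of members called stayed within 1.5 times the main count except as follows. Fitting only the groups under comparison, DLD-1 LIN28B versus EV had 1 higher, LoVo-labelled alpelisib 2 higher, and LoVo-labelled against DLD-1 LIN28B 3 lower. Under median-of-ratios scaling, LoVo-labelled LIN28B versus LoVo EV had 9 lower, LoVo-labelled alpelisib 2 higher, DLD-1 alpelisib versus EV 2 higher, LoVo EV versus DLD-1 EV 10 lower, the difference of alpelisib effects 1 higher and the difference of LIN28B effects 12 higher. Rescaling without mitochondrial transcripts gave 9 lower for LoVo-labelled LIN28B versus LoVo EV and 1 higher for the difference of alpelisib effects, and a filter of 5 TPM gave 3 and 1 for the same. Without LoVo EV replicates 1 and 2, chosen after seeing the data, LoVo EV versus DLD-1 EV had 10 lower and the difference of LIN28B effects 10 higher. Leaving out 1 library at a time gave 4 to 17 higher for DLD-1 LIN28B versus EV, 0 to 1 higher for DLD-1 alpelisib, 1 to 2 higher for LoVo-labelled alpelisib, 10 to 14 lower for DLD-1 alpelisib versus EV, 2 to 10 lower for LoVo-labelled against DLD-1 LIN28B and 0 to 4 higher for the difference of alpelisib effects. The cause of these shifts was not tested, and fits without a library hold fewer samples.

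Replicate numbers were shared across groups, but same-numbered libraries did not deviate together (r from -0.302 to 0.143). With the replicate number as a block, 10 members rose in DLD-1 LIN28B versus EV, 27 fell with alpelisib in DLD-1 and the difference of alpelisib effects had 1 higher. The ATF4 change turned sign in 4 settings: to -0.01 and -0.03 for LoVo-labelled alpelisib without LoVo-labelled LIN28B replicate 1 and without LoVo-labelled alpelisib replicate 3, to 0.04 for DLD-1 alpelisib versus EV and to -0.03 for the difference of LIN28B effects under median-of-ratios scaling. Without single libraries its LoVo-labelled alpelisib value ran from -0.03 to 0.03. Depth is unknown, so what it limits could not be given, and members near 1 TPM, such as ADM2, STC2 and FGF19, had folds that the log2(TPM + 1) scale understates.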
